A study of Mus musculus with 6 samples.

Results

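The proteasome genes of maturing mouse erythroblasts were described in 6 RNA libraries, 3 labelled Tfam WT and 3 labelled Tfam KO. Members were all genes whose symbol is Psma, Psmb, Psmc, Psmd, Psme, Psmf or Psmg followed by a number, whatever their values, which gave 48 of the 23094 named rows of the deposited table. These are 8 core alpha genes (Psma), 11 core beta genes (Psmb), 6 regulatory ATPase genes (Psmc), 14 non-ATPase genes (Psmd) and 9 others (Psme, Psmf and Psmg). All libraries came from CD71+Ter119+ erythroid cells of the C57BL/6 strain, sorted from fetal liver on embryonic day 13.5. Both groups therefore share strain, stage and sort, and they differ in the labels by the Tfam genotype alone. The Tfam protein binds mitochondrial DNA and is needed to copy and transcribe it. No source used here gives a Cre driver, the litter or the number of embryos behind a library. A p-value therefore reflects the spread among these libraries alone, and part of it may be technical. Libraries were made from total RNA and values are RPKM, read counts scaled by transcript length and by the mapped reads of the library.

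The proteasome is the protease that degrades proteins tagged with ubiquitin. Its core particle stacks rings of alpha subunits, which form the gate, around rings of beta subunits, of which Psmb5, Psmb6 and Psmb7 carry the active sites. A regulatory particle caps the core, with a ring of Psmc ATPases that unfolds the substrate and Psmd subunits that bind and remove ubiquitin. Each subunit has a fixed place in the complex, and the transcription factor Nfe2l1 raises subunit genes together when proteasome activity falls short. Red cell precursors rely on the ubiquitin and proteasome system to remodel their protein content, and reticulocyte extracts are a classic source for studying ATP-dependent proteolysis.

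The libraries differed in ways that the groups do not explain. RPKM sums ran from 423263 to 535933 in 5 libraries and reached 815524 in WT replicate 3. That library also differed by transcript length. Relative to the mean of the 6 libraries on the log2(RPKM + 1) scale, its median was 0.83 for the 786 tested rows with transcripts under 1000 bases and -0.24 for the 4573 rows with 2500 bases or more. Tfam was at 7.22, 8.44 and 5.72 RPKM in WT replicates 1, 2 and 3 and at 5.92, 7.22 and 6.25 in KO replicates 1, 2 and 3. The ranges overlapped (p = 0.7 by an exact permutation test, two-sided, which cannot go below 0.1 with these numbers), so the level of Tfam does not check the labels, and WT and KO below name libraries by label. The 10 erythroid markers, led by the anion exchanger Slc4a1, were all found, with sums of 9420 to 14780 RPKM. Neutrophil markers (8 of 8 found) summed to 168 RPKM in WT replicate 3 and to 27.6 to 70.7 in the other libraries. Fold changes of single genes and of lists are therefore given with and without WT replicate 3. In bulk RNA, fewer cells of a type and less RNA per cell cannot be told apart.

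Proteasome subunit genes were among the more abundant transcripts of these cells. Of the 48 members, 44 had a mean of at least 1 RPKM over the 6 libraries and were tested, and 35 had a mean above 50 RPKM. The median member lay above 89.9% of the 8302 tested rows, whose median level was 10.5 RPKM. The 4 members under the limit were Psma8, Psmb8, Psmb9 and Psmb11. Psma8, an alpha subunit of the testis, reached at most 0.650 RPKM in any library. Psmb11, a beta subunit of the thymic cortex, reached at most 0.229 RPKM.

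Levels were most alike within the ATPase and alpha classes. The 6 ATPases had means of 90.0 to 151 RPKM, a span of 1.68-fold. The 7 tested alpha genes had means of 74.9 to 189 RPKM, a span of 2.52-fold, with Psma4 at the low end and Psma2 at the high end. The 14 non-ATPase genes ran from 35.0 RPKM for Psmd10, an assembly chaperone of the regulatory particle also known as gankyrin, to 162 RPKM for the ubiquitin receptor Psmd4. Their span was 4.62-fold. Structural and standard catalytic beta genes had means between 105 RPKM (Psmb6) and 274 RPKM (the row that Psmb5 shares with Mir686). Psmb10, the remaining tested beta gene, had a mean of 1.64 RPKM. The genes of the last class ran from 3.95 RPKM for the assembly chaperone Psmg1 to 332 RPKM for the row of the nuclear activator Psme3.

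**Figure D1:**
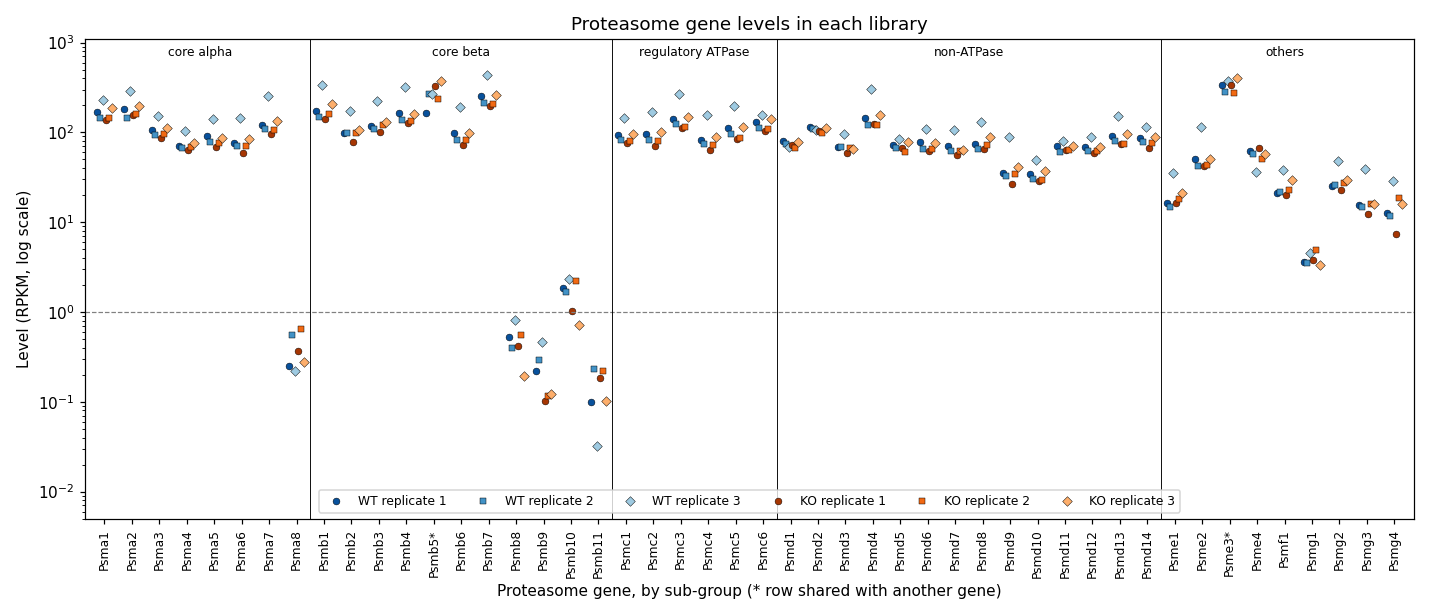
Level of each of the 48 proteasome genes in RPKM on a log scale, grouped by sub-group, with 1 point per library (blue for WT, orange for KO) and a dashed line at the limit of 1 RPKM. Most subunits of the core and regulatory particles lie in a band around 100 RPKM. Psmb10 lies near the line with a mean of 1.64 RPKM, and Psma8, Psmb8, Psmb9 and Psmb11 lie below it. The pale blue diamonds of WT replicate 3 are on top for 38 of the 44 tested genes.

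Of the 44 tested proteasome genes, 0 passed the comparison of KO with WT at an adjusted p of 0.05 (limma on log2(RPKM + 1) over all 8302 tested rows, Benjamini-Hochberg), as did 0.00% of all tested rows. The lowest adjusted p was 0.909, and 0 members had an unadjusted p under 0.05, beside 1.20% of all tested rows. The fitted value was lower in KO for 40 members and higher for 4, beside 53.0% of all tested rows with a lower value. The median log2 fold change was -0.28 for the members and -0.019 for all tested rows. Without WT replicate 3, 31 of 44 members had a lower value, beside 55.0% of all rows, and the median was -0.041 beside -0.013. In that comparison 0 members passed, beside 0.0120% of all rows, and 0 had an unadjusted p under 0.05, beside 2.20%. The median standard error of a member was 0.27 with all libraries, and 37 of 44 had a 95% interval wider than 1 on the log2 scale. Without WT replicate 3 the median standard error was 0.17.

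WT replicate 3 held the highest level of 38 of 44 members, beside 41.7% of all tested rows, and its level was a median of 1.76 times the mean of WT replicates 1 and 2. For 30 members that ratio was above 1.5. The median ratio of the KO mean to the WT mean was 0.797 with all libraries and 0.976 when WT replicate 3 was left out. KO replicate 1 was the lowest library for 31 of 44 members, and the share over all tested rows was not counted. Its median deviation from the mean of the libraries was -0.31 for the members and -0.030 for all tested rows. For all tested rows under 1000 bases it was -0.37, and for those from 1000 to below 1500 bases -0.25. Within numbered pairs, the median log2 difference of KO from WT was -0.30 for libraries numbered 1, -0.0073 for those numbered 2 and -0.66 for those numbered 3, beside -0.025, -0.042 and -0.021 for all tested rows. The pair numbered 1 does not hold WT replicate 3, and in it 41 of 44 members were lower in KO, beside 55.1% of all rows. In the pair numbered 2 the count was 25 of 44, beside 58.8%, and in the pair numbered 3 it was 39 of 44, beside 51.3%. The KO library was lower than the WT library of its number in every pair for 20 of 44 members, beside 20.1% of all tested rows.

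**Figure D2:**
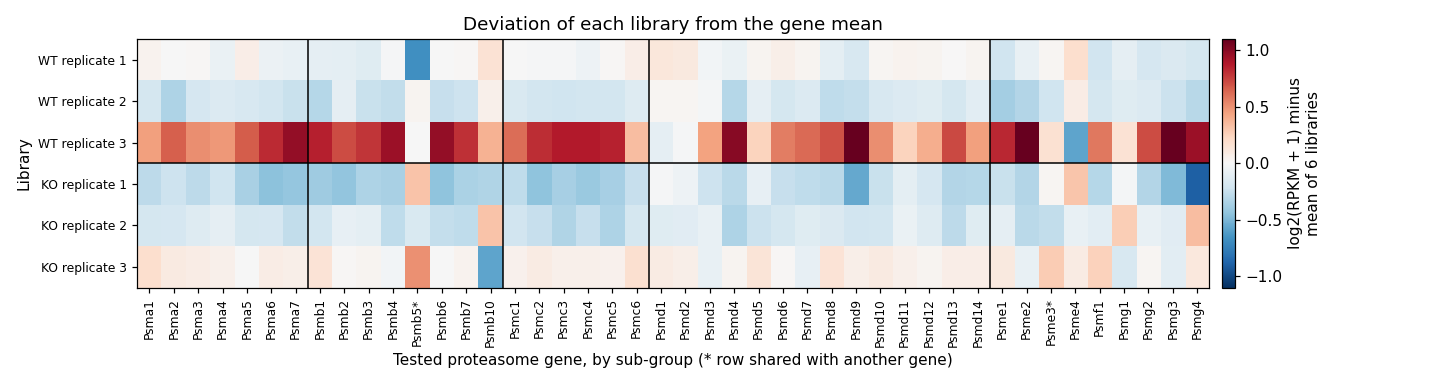
Deviation of each library (rows) from the mean of the 6 libraries for each tested proteasome gene (columns, by sub-group), in log2(RPKM + 1), red above and blue below the mean. WT replicate 3 is red for nearly every gene with a member median of 0.66, KO replicate 1 is mostly blue at -0.31, and Psmb5, Psme4, Psmd1 and Psmd2 depart from the row of WT replicate 3.

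The members are short transcripts, with a median annotated length of 1425 bases beside 2720 for all tested rows. In WT replicate 3 the 9 members under 1000 bases deviated by a median of 0.95 from the mean of the libraries, beside 0.83 for all tested rows of that length. The 12 members from 1500 to below 2500 bases deviated by 0.62, beside 0.24, and the 9 members of 2500 bases or more by 0.24, beside -0.24. Across the 44 members this deviation went down with log2 length (Pearson r = -0.59, Spearman rho = -0.51), as it did across all rows with a length (r = -0.54). All points share the same libraries and genes are not independent replicates. Single members departed from the trend: Psmd9, at 2597 bases, had the highest ratio of WT replicate 3 to WT replicates 1 and 2 (2.63), and Psma2 (2911 bases) and Psmf1 (3809 bases) had ratios of 1.77 and 1.76. When a loess trend with length was removed from each library, the median log2 fold change of the members was -0.13, with 35 of 44 lower. For all tested rows it was -0.0019, with 50.3% lower.

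**Figure D3:**
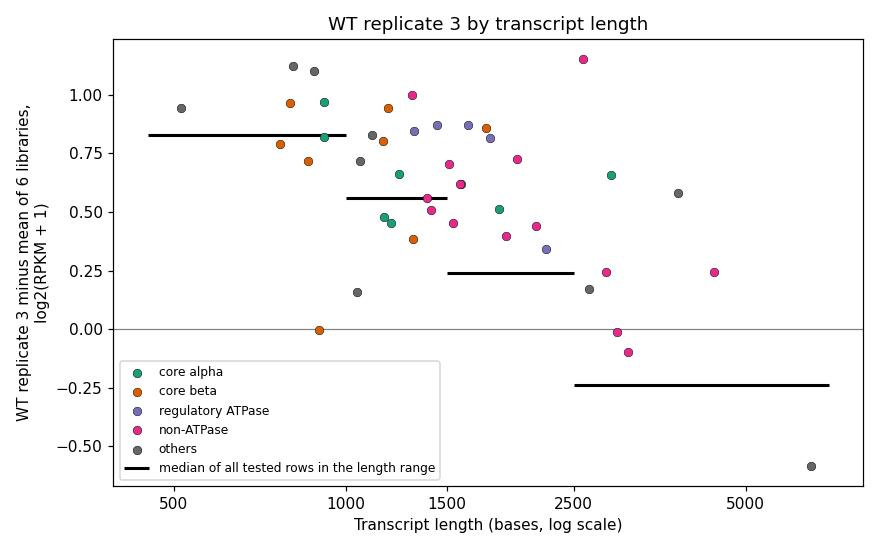
Deviation of WT replicate 3 from the mean of the 6 libraries in log2(RPKM + 1), against annotated transcript length in bases on a log scale, with 1 point per tested proteasome gene coloured by sub-group. Black bars are medians of all tested rows in 4 length ranges, from 0.83 for the shortest to -0.24 for the longest, and most proteasome genes over 1500 bases lie above their bar.

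The alpha genes, which form the outer rings and gate of the core, had lower fitted values in KO for 7 of 7 tested members (median -0.23). Psma7 had the widest difference of them. It was at 122, 109 and 254 RPKM in WT replicates 1, 2 and 3 and at 96.0, 107 and 136 in KO replicates 1, 2 and 3. The groups overlapped, and only WT replicate 3 stood clear of the other 5 libraries. Its log2 fold change was -0.42 (SE 0.35, adjusted p = 0.909), and -0.046 without WT replicate 3. Psma5 followed at 92.1, 77.5 and 139 RPKM in WT and 68.0, 76.6 and 87.2 in KO, with a log2 fold change of -0.37 (SE 0.25), and -0.13 without WT replicate 3. Psma2, the most abundant alpha gene, was at 183, 145 and 290 RPKM in WT and 157, 161 and 197 in KO. Its log2 fold change of -0.21 turned to 0.070 without WT replicate 3 and to 0.011 with quantile normalization. Without that library the median of the alpha genes was -0.033, with 5 of 7 lower.

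Of the standard catalytic beta genes, Psmb6 and Psmb7 had lower fitted values in KO and the row of Psmb5 a higher one, and the difference between these genes was not tested. Psmb6 encodes the subunit with caspase-like activity and was at 98.1, 82.7 and 194 RPKM in WT and 72.4, 82.1 and 98.6 in KO, with a log2 fold change of -0.47 (SE 0.33), and -0.10 without WT replicate 3. Psmb7, with trypsin-like activity, was at 254, 214 and 440 RPKM in WT and 197, 207 and 259 in KO, with a log2 fold change of -0.39 (SE 0.31), and -0.089 without that library. In both genes WT replicate 3 was the highest library, and the other 5 libraries overlapped between groups. The row of Psmb5, with chymotrypsin-like activity, was at 166, 271 and 265 RPKM in WT and 331, 236 and 378 in KO. Its lowest library was WT replicate 1 and its highest KO replicate 3, and the groups overlapped. The log2 fold change was 0.43 (SE 0.29, 95% interval -0.26 to 1.12, adjusted p = 0.909), and 0.54 (SE 0.28) without WT replicate 3. It was 0.21 without WT replicate 1 and 0.29 without KO replicate 3, and 0.69 with the length trend removed. With libraries weighted by their spread it was 0.82 (limma adjusted p = 0.0983), which did not pass. This row names the microRNA gene Mir686 as well as Psmb5, so its value cannot be given to Psmb5 alone.

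Among the other beta genes Psmb4, a structural subunit, had the largest difference, at 164, 137 and 317 RPKM in WT and 128, 135 and 161 in KO. The log2 fold change was -0.44 (SE 0.33), and -0.083 without WT replicate 3. Psmb1, Psmb2 and Psmb3, also without active sites, had log2 fold changes of -0.30, -0.34 and -0.28, and of 0.057, -0.068 and 0.048 without WT replicate 3. Of the 8 tested beta genes 7 had a lower value with all libraries (median -0.37) and 5 without WT replicate 3 (median -0.076).

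Promoters of proteasome genes are shown because Nfe2l1 acts through the antioxidant response element, searched here as TGACNNNGC on both strands from 250 bases before to 50 bases after the gene start. Of 40 members matched by symbol in the RefSeq promoter table (build GRCm38.p6), 6 held it (15.0%), beside 14.0% of the 27025 genes in the table, a share near the background. They were Psmb5, Psmb6, Psmc6, Psmd9, Psmd12 and Psme4. The CCAAT box, searched as CCAAT on both strands, was held by 14 of 40 members (35.0%), beside 41.1% of all genes. The 250 bases before the start of Psmb5, Psmb6 and Psmd9 follow, 5′ to 3′ on the strand of the gene, with the element in capitals. They show the motif at 47, 9 and 31 bases before the start, in a gene whose row was higher in KO without passing the test and in 2 whose values were lower without passing it. A match describes these letters only and says nothing of binding.
Psmb5 (chr14:54617996-54618245, minus strand): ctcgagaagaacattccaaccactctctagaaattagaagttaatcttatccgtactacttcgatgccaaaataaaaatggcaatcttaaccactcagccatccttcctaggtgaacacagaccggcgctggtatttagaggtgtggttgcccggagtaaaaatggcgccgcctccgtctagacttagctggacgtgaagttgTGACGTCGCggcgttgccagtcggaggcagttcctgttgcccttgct
Psmb6 (chr11:70525107-70525356, plus strand): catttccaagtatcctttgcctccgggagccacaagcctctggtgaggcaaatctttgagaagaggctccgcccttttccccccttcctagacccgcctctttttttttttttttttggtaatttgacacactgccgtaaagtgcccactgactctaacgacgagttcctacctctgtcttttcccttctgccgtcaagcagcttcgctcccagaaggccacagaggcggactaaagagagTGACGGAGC
Psmd9 (chr5:123227940-123228189, plus strand): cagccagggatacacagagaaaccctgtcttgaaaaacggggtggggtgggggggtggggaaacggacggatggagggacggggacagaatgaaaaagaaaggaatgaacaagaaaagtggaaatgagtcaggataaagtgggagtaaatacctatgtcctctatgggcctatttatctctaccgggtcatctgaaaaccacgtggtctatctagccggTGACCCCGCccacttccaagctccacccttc

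The inducible catalytic genes Psmb8, Psmb9 and Psmb10, which replace Psmb5, Psmb6 and Psmb7 in the immunoproteasome of immune cells and after interferon, were near the floor of these data. Psmb10 was at 1.87, 1.67 and 2.35 RPKM in WT and 1.03, 2.19 and 0.712 in KO, and the groups overlapped. This was 0.275% to 1.06% of the level of Psmb7 in the same library. The log2 fold change was -0.40 (SE 0.25), and -0.31 without WT replicate 3. It was -0.66 without KO replicate 2 and -0.21 without KO replicate 3, -0.67 with a pseudocount of 0.1 and -0.21 with the length trend removed. Psmb8 was at 0.526, 0.402 and 0.824 RPKM in WT and 0.423, 0.550 and 0.194 in KO, or 0.0513% to 0.316% of the Psmb5 row. Psmb9 was at 0.222, 0.293 and 0.467 RPKM in WT and 0.103, 0.116 and 0.123 in KO, or 0.124% to 0.355% of Psmb6. For Psmb9 the highest KO library lay below the lowest WT library (p = 0.1 by an exact two-sided permutation test, the smallest that 3 against 3 allows). Its mean was under the limit of the main test across genes, so it was fitted only in the alternative with no filter on low values. The 10 macrophage markers, all found and none listed at 0 throughout, with 6 at a mean of at least 1 RPKM, summed to 12.5 to 19.1 RPKM in WT and 4.67 to 12.0 in KO, so this sum too was lower in each KO library than in any WT library. WT replicate 3 was highest and KO replicate 3 lowest for these markers, for Psmb8 and for Psmb10. The lymphoid marker sum (0.115 to 0.630 RPKM) had the same highest and lowest libraries. The neutrophil marker sum was highest in WT replicate 3 (168 RPKM) and lowest in KO replicate 1 (27.6), as was Psmb9. WT replicate 3 held the highest level of 41.7% of all tested rows. The part of macrophage RNA in the inducible genes was not tested.

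**Figure D4:**
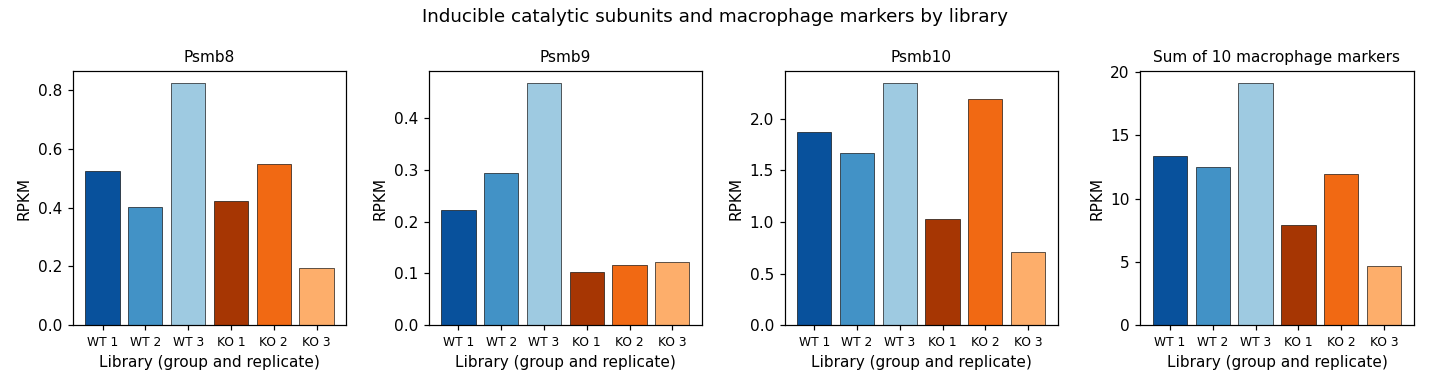
Level in RPKM of the inducible catalytic genes Psmb8, Psmb9 and Psmb10 and the summed level of 10 macrophage markers, with 1 bar per library (blue for WT, orange for KO) and axes from 0. The KO bars of Psmb9 lie at 0.103 to 0.123, below every WT bar, while Psmb8 and Psmb10 overlap between groups and share their highest and lowest libraries with the macrophage markers.

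The regulatory ATPases spanned the narrowest range of levels of the 5 classes. In 6 of 6 the fitted value was lower in KO (median -0.41), and without WT replicate 3 it was still lower in 6 of 6 (median -0.084). WT replicate 3 was the highest and KO replicate 1 the lowest library in 6 of 6, and the share of all rows with both was not counted. Psmc5 had the largest difference, at 111, 95.1 and 198 RPKM in WT and 84.9, 86.3 and 114 in KO. Its log2 fold change was -0.44 (SE 0.30, 95% interval -1.15 to 0.28), and -0.12 without WT replicate 3. Psmc3, the most abundant ATPase gene, was at 142, 124 and 264 RPKM in WT and 112, 114 and 150 in KO, with a log2 fold change of -0.42 (SE 0.32), and -0.094 without that library. In both genes the highest KO library, replicate 3, lay above WT replicates 1 and 2.

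Of the non-ATPase genes 14 of 14 had a lower fitted value in KO (median -0.24), and 12 of 14 without WT replicate 3 (median -0.060). With all libraries the large scaffold subunits Psmd1 and Psmd2 had the narrowest fold changes of the class, and WT replicate 3 was not their highest library. Psmd1 was at 80.3, 75.0 and 68.8 RPKM in WT and 73.1, 67.3 and 78.7 in KO, with a log2 fold change of -0.032 (SE 0.16), and -0.089 without WT replicate 3. Psmd2 was at 116, 109 and 106 RPKM in WT and 103, 98.7 and 112 in KO (-0.079, SE 0.16), and -0.11 without that library. The ranking thus depended on WT replicate 3, since without it Psmd2 had the widest fold change of the class. The transcripts of Psmd1 and Psmd2 have 3112 and 2981 bases. Psmd5, at 4397 bases, was highest in WT replicate 3, with a ratio of 1.21 to WT replicates 1 and 2. The ubiquitin receptor Psmd4 was at 145, 122 and 305 RPKM in WT and 123, 120 and 155 in KO, so WT replicate 3 alone stood apart. Its log2 fold change was -0.41 (SE 0.36), and -0.011 without that library. Psmd9, an assembly chaperone, was at 35.1, 32.9 and 89.5 RPKM in WT and 26.6, 34.1 and 41.5 in KO. The log2 fold change of -0.48 (SE 0.39) became -0.019. Psmd14, the deubiquitinase of the regulatory particle, had a log2 fold change of -0.25 (SE 0.21), and -0.082 without WT replicate 3.

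Psmd3, a structural subunit of the regulatory particle lid, was the single tested member whose groups did not overlap, beside 4.54% of all tested rows in either direction. KO lay below WT in 1 member, beside 2.36% of all rows, and above WT in 0, beside 2.18%. Psmd3 was at 68.3, 69.0 and 95.3 RPKM in WT and 59.4, 66.2 and 66.0 in KO. The highest KO value lay just under the lowest WT value. Means were 77.5 ± 15.4 RPKM in WT and 63.9 ± 3.84 in KO (SD, n = 3 each). The log2 fold change was -0.26 (SE 0.19, limma adjusted p = 0.909), and -0.10 (SE 0.13) without WT replicate 3.

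**Figure D5:**
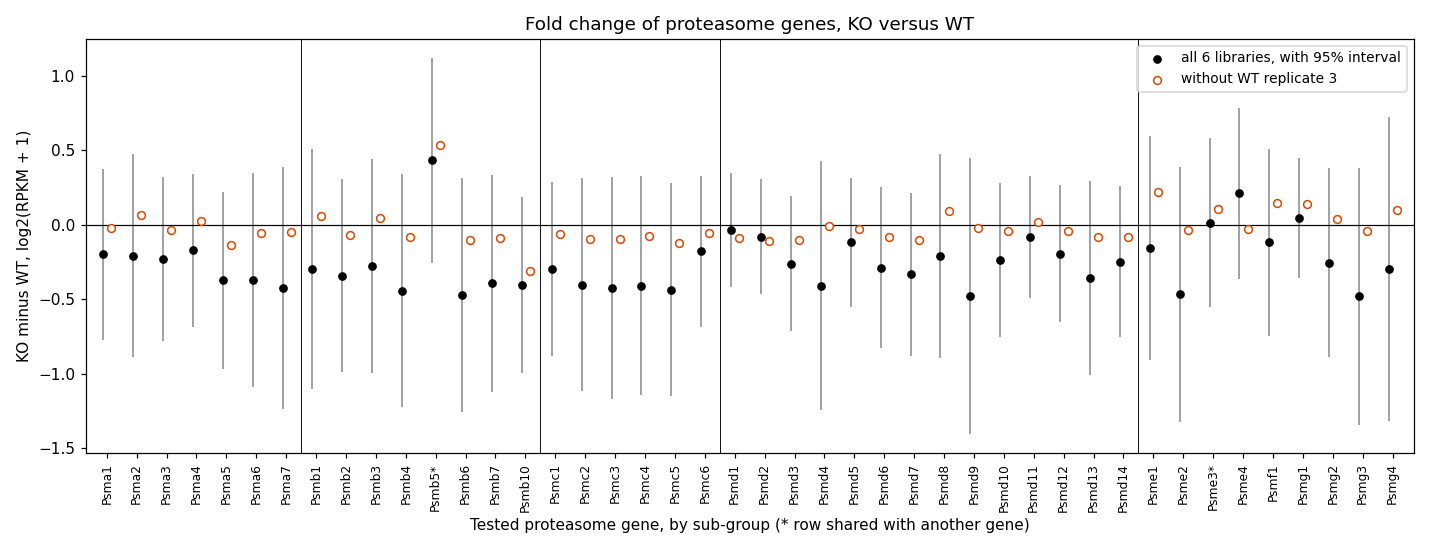
Difference of KO from WT in log2(RPKM + 1) for each tested proteasome gene by sub-group, as black points with 95% intervals from all 6 libraries and open orange points without WT replicate 3. Every black interval crosses 0, and without WT replicate 3 the points gather near 0 except Psmb5 at 0.54, Psmb10 at -0.31 and Psme1 at 0.22.

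Among the activators of the core particle, 0 of 4 passed and the groups overlapped in each. Psme1 and Psme2 form an interferon-inducible cap together. Psme1 was at 16.5, 14.8 and 35.2 RPKM in WT and 16.2, 18.1 and 21.0 in KO, and its log2 fold change of -0.16 (SE 0.32) turned to 0.22 (SE 0.14) without WT replicate 3. Psme2 was at 50.1, 42.1 and 115 RPKM in WT and 42.3, 43.0 and 49.9 in KO, with a log2 fold change of -0.47 (SE 0.36), and -0.032 without that library. For both genes the other 5 libraries overlapped between groups. The row of Psme3, which encodes a nuclear activator and is shared with the amine oxidase gene Aoc2, was at 335, 283 and 371 RPKM in WT and 334, 272 and 399 in KO, and its log2 fold change was 0.016 (SE 0.24), and 0.11 without WT replicate 3. Psme4, a large activator that opens the core without ATP, has the longest transcript of the family (6491 bases). It was at 61.5, 57.2 and 35.8 RPKM in WT and 67.2, 51.1 and 57.5 in KO. WT replicate 3 was its lowest library, the reverse of most subunits, and the log2 fold change of 0.21 (SE 0.24) became -0.026 without it.

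The inhibitor and assembly genes stayed at modest levels. Psmf1, an inhibitor of the core particle in vitro, was at 21.3, 21.6 and 37.8 RPKM in WT and 19.9, 22.8 and 29.9 in KO, with a log2 fold change of -0.12 (SE 0.27), and 0.15 without WT replicate 3. Psmg1 and Psmg2 pair as a chaperone of alpha ring assembly. Psmg1 was at 3.60, 3.49 and 4.49 RPKM in WT and 3.84, 4.92 and 3.37 in KO (log2 fold change 0.047, SE 0.17), and 0.14 without WT replicate 3. Psmg2 was at 25.1, 25.8 and 47.8 RPKM in WT and 22.7, 27.1 and 29.2 in KO (-0.26, SE 0.27), and 0.040 without WT replicate 3. Psmg3 and Psmg4 form the other chaperone pair of the alpha ring. Psmg3 was at 15.5, 14.7 and 39.2 RPKM in WT and 12.2, 16.0 and 16.1 in KO (-0.48, SE 0.37), and -0.039 without WT replicate 3. Psmg4 was at 12.6, 11.6 and 29.0 RPKM in WT and 7.33, 18.7 and 15.9 in KO (-0.30, SE 0.43), and 0.10 without that library. Leaving it out, 3 of 9 of these activator, inhibitor and assembly genes had a lower value (median 0.10).

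Without WT replicate 3, 41 of the 44 tested members lay within 0.15 of 0 on the log2 scale, beside 78.6% of all tested rows. This window was chosen after the values were seen. The exceptions were the row of Psmb5 and Mir686 (0.54), Psmb10 (-0.31) and Psme1 (0.22), and the lowest unadjusted limma p without that library was 0.0927, for the Psmb5 row.

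When the replicate number was fitted as a block, 0 members had an unadjusted p under 0.05, beside 3.90% of all rows. With the replicate block and the length trend removed, 5 members had one, beside 7.70%. With no filter on low values, 1 of 48 members had one, beside 2.45% of all rows fitted. With quantile normalization 1 of 44 did (the Psmb5 row), beside 1.58%, and without KO replicate 2 also 1 of 44 (Psmb10), beside 0.976%. With libraries weighted by their spread around the fit, 10 members had one, beside 13.8%, and 0 passed the adjusted threshold, beside 0.723%.

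Genes that work with the proteasome were read from lists of other symbols. Over all tested rows 53.0% had a lower value with all libraries (median -0.019) and 55.0% without WT replicate 3 (median -0.013). Among partners and assembly factors outside the Psm symbols 17 of 17 found rows were tested, 7 with a higher and 10 with a lower value, 0 passed in either direction and the median was -0.091, or -0.033 with 11 lower without WT replicate 3. Pomp, which guides core maturation, was at 84.3, 74.0 and 142 RPKM in WT and 64.5, 83.5 and 83.2 in KO (log2 fold change -0.32, SE 0.28), and -0.045 without WT replicate 3. Adrm1, a ubiquitin receptor of the regulatory particle, was at 72.7, 66.4 and 129.5 RPKM in WT and 60.6, 64.4 and 76.5 in KO (-0.35, SE 0.28), and -0.055 without that library. The deubiquitinase Uchl5 had the lowest p of this list, at 32.1, 29.3 and 41.0 RPKM in WT and 25.8, 28.3 and 31.7 in KO (-0.24, SE 0.18), and -0.10 without WT replicate 3.

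Regulators of proteasome genes were also measured. Of 17 tested, 6 had a higher and 11 a lower value, 0 passed and the median was -0.049, or -0.071 with 15 lower without WT replicate 3. Nfe2l1 was at 18.1, 16.6 and 14.9 RPKM in WT and 18.0, 14.4 and 15.6 in KO (log2 fold change -0.049, SE 0.15), and -0.12 without WT replicate 3. Nfe2l2, a related factor of the oxidative stress response, was at 30.5, 21.9 and 23.0 RPKM in WT and 29.0, 19.0 and 24.4 in KO (-0.061, SE 0.21), and -0.12 without WT replicate 3. For both factors the groups overlapped, and replicate 1 was the highest library in each group. Nfyc, a subunit of the factor that binds CCAAT boxes, had the lowest p of the list, at 40.9, 42.8 and 74.0 RPKM in WT and 34.3, 36.1 and 53.3 in KO (-0.32, SE 0.29), and -0.048 without WT replicate 3.

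Ubiquitin genes and activating enzymes had 4 of 16 tested members with a higher and 12 with a lower value, and 0 passed. The median was -0.12, or 0.031 with 8 lower without WT replicate 3. The ubiquitin-like modifier Nedd8 had the lowest p, at 143, 125 and 307 RPKM in WT and 111, 123 and 167 in KO (log2 fold change -0.42, SE 0.37), and -0.024 without WT replicate 3. In the list of interferon response and antigen presentation, 10 of 16 found rows were tested, 7 had a higher and 3 a lower value, and 0 passed (median 0.068). Without WT replicate 3, 6 of 10 were lower with a median of -0.018, near the 55.0% and -0.013 of all tested rows. Its lowest p was that of Ifngr2, a chain of the interferon gamma receptor, at 5.51, 3.92 and 5.02 RPKM in WT and 3.45, 2.87 and 4.03 in KO (log2 fold change -0.38, SE 0.17), and -0.36 without WT replicate 3. Its groups overlapped, since KO replicate 3 lay above WT replicate 2.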

How the data were processed

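RNA was sequenced from 6 libraries of sorted erythroid cells, 3 per group. The authors deposited RPKM values made with TopHat and Cufflinks on build mm9, per the submitters' processing notes. No source used here gives the versions, annotation or strand setting. Because RPKM scales by annotated length and library total, a library with relatively few reads on long transcripts shows higher values for short ones. Of 23119 rows, 25 carry a number for a name and were left out. No member stood on more than 1 row, and 2 share a row with another gene. Absolute depth is unknown. Ratios of values below 0.05 RPKM put WT replicate 1, KO replicate 2 and KO replicate 3 at 79.8% to 88.9% of the depth of WT replicate 2, where 89.9% to 90.9% of the ratios fell on ratios of whole reads (log2 tolerance 0.03). KO replicate 1 came out at 94.0% with 46.1% on steps, and WT replicate 3 was not resolved.

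The 8302 rows with a mean of at least 1 RPKM were tested with limma 3.58.1 (R 4.3.3) on log2(RPKM + 1) with a variance trend and no block, two-sided, adjusted by Benjamini-Hochberg over all rows at 0.05. This scale understates changes of low genes. Alternatives were a pseudocount of 0.1, no filter or a mean of at least 5 RPKM, no trend, quantile normalization, median centring, the replicate block, removal of a loess trend with log2 transcript length (span 0.5, GENCODE M21 on another build), library weights, and leaving out each library. On simulated data with 200 of 8302 genes changed, KO versus WT, 51% of changes of 1 and 78% of changes of 2 on the log2 scale were recovered, with 9 false calls among 138. Each simulated gene was drawn independently with its own spread, without a deviation shared across genes like that of WT replicate 3. These shares therefore do not give the sensitivity of the comparison on the real libraries.

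Replicate numbers 1 to 3 occur in both groups. No label says that equal numbers are pairs. Deviations from group means correlated at 0.46, 0.17 and 0.53 for libraries numbered 1, 2 and 3, which does not settle the pairing. The numbers were used as pairs only in the replicate block and in the differences within numbers, not in the main test. WT replicate 2 correlated more with KO replicate 1 (0.40) than with KO replicate 2. Members, lists and the naming rule were set with earlier results of these data known. The rule names the catalytic genes, each tested Psme, Psmf and Psmg gene, the 2 largest differences and the highest level per class, members whose groups do not overlap, and from other lists Nfe2l1, Nfe2l2, Pomp, Adrm1 and the gene of lowest p. Psma4, Psma8, Psmb1, Psmb2, Psmb3, Psmb11, Psmd1, Psmd2, Psmd5, Psmd10 and Psmd14 were added after their values were seen. Hepatocyte markers summed to 14.9 to 139 RPKM, megakaryocyte markers to 14.5 to 65.9 and lymphoid markers to 0.115 to 0.630. Figures used Python 3.11.15 with matplotlib 3.10.9.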

Additional observations from a re-analysis of the deposited data

How the results depend on the processing

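In each of the 18 alternatives 0 proteasome genes passed, the median log2 fold change of the family stayed below 0 and 30 to 42 members had a lower fitted value. Over all rows fitted 0 to 60 passed, with the most under library weights (0.723%), so 0 members passing is near the background. Among all rows 45.9% to 60.2% had a lower value, and medians ran from -0.065 to 0.0047. The median was -0.29 with median centring, -0.13 with quantile normalization (34 of 44 lower) or with the length trend removed (35 of 44), and -0.18 with library weights. Over the 6 fits that left out 1 library it ran from -0.45 without WT replicate 2 to -0.041 without WT replicate 3. With the replicate block the lowest limma adjusted p was 0.715, and 0 members had an unadjusted p under 0.05, beside 3.90% of all rows. Of all tested rows 0 passed with or without the block, so the calls cannot show whether pairing matters. Both combined alternatives without WT replicate 3 were chosen after seeing the data: with the length trend removed the median was -0.059, and with median centring -0.044.

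Of the 22 tested members named by the rule, 14 kept their sign in every alternative run, and the cause of the other changes of sign was not tested. Members added after their values were seen were not counted. Of these, Psma4, Psmb1 and Psmb3 changed sign without WT replicate 3. Quantile normalization turned Psma2 to 0.011. Removing the length trend, with or without the replicate block, turned Psme1 to 0.066 and Psmg4 to 0.041. Library weights turned Psme1 to 0.085, Psme3 to -0.067, Psme4 to -0.049, Psmf1 to 0.061 and Psmg2 to 0.0047. Without WT replicate 3 and with the length trend removed, values were 0.080 for Psma2, 0.20 for Psme1, 0.17 for Psmf1, 0.015 for Psmg2 and 0.040 for Psmg4. With median centring instead they were 0.066, 0.21, 0.14, 0.037 and 0.099, and -0.029 for Psme4. Leaving out 1 library gave -0.43 to 0.070 for Psma2, -0.38 to 0.22 for Psme1, -0.12 to 0.16 for Psme3, -0.026 to 0.36 for Psme4, -0.27 to 0.15 for Psmf1, -0.075 to 0.14 for Psmg1, -0.41 to 0.040 for Psmg2 and -0.54 to 0.10 for Psmg4.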

Other observations

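Ubiquitin enzymes known from erythroid maturation were measured as a list of 16 genes, all tested. The fitted value in KO was higher for 10 and lower for 6, beside 53.0% lower among all tested rows, and 0 passed the limma test. The median log2 fold change was 0.081. Without WT replicate 3 it was 0.027 with 5 lower, beside 55.0% lower among all rows. Trim58, a ubiquitin ligase of late erythroblasts, had the lowest p, at 44.8, 33.6 and 18.3 RPKM in WT replicates 1, 2 and 3 and 47.7, 33.9 and 46.8 in KO (log2 fold change 0.47, SE 0.33), and 0.12 without WT replicate 3. Ube2o, which tags surplus ribosomal proteins in reticulocytes, was at 250, 201 and 205 RPKM in WT and 280, 215 and 227 in KO (0.13, SE 0.21), and 0.091 without WT replicate 3. Ube2h, the partner of the ligase complex of Maea and Wdr26, was at 115, 96.4 and 150 RPKM in WT and 139, 108 and 139 in KO (0.11, SE 0.23), and 0.28 without WT replicate 3. Ube2c went the other way, at 1088, 896 and 1702 RPKM in WT and 816, 724 and 1053 in KO (-0.47, SE 0.34), and -0.21 without WT replicate 3. In each of these genes the groups overlapped. Ube2o, Ube2h and Ube2c were chosen after their values were seen.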
